A study of Homo sapiens with 31 samples.

Results

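The histone genes were followed in poly(A)-selected RNA from MCF10A, a human mammary epithelial cell line that is not tumour-derived, as the cells left starvation with or without a drug against CDK4 and CDK6. Members were taken by name: symbols that begin with HIST1H, HIST2H, HIST3H, HIST4H, H1F, H2AF or H3F3, leaving out 13 names with PS. The rule found 105 of 56269 gene names in the count tables. Of these, 76 were clustered HIST names, 16 were variant genes, and 13 variant-type names belonged to pseudogenes or an antisense RNA. The 76 are called clustered genes below, although pseudogenes without PS in their names, such as HIST2H3DP1, are among them. A filter on low counts left 35 members among 15787 tested genes: 24 clustered, 10 variant and the antisense H1FX-AS1. No count was found in any library for 22 members, 14 of them clustered.

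All groups had first been held for 2 to 3 days without serum, EGF or insulin, with hydrocortisone and cholera toxin kept in the medium. The starved group (0 h) was collected then. The other cells were released into full medium with 0.1% DMSO, the vehicle, for 3, 6, 9, 12, 15 or 24 h, or with 1 µM palbociclib for 9, 12, 15 or 24 h. The 31 libraries formed 11 groups of 3, except that each 24 h group had 2 libraries (replicates 1 and 3). The labels do not say that replicates were separate cultures, so the p-values measure the spread between libraries, which may be technical.

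Core histones H2A, H2B, H3 and H4 wrap DNA into nucleosomes, and H1 binds the linker DNA between them. Most histone protein for new chromatin comes from clustered genes read during S phase, whose messages usually end in a stem-loop in place of a poly(A) tail. Variant genes such as H2AFZ and H3F3B make polyadenylated messages and are used outside S phase as well. Poly(A) selection therefore sees mainly the variant messages, the clustered messages that carry a tail, and small amounts of RNA without one.

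Library totals ran from 10342358 to 20878364 counts, with a median of 14675009. Levels are CPM, counts scaled to a common library size after TMM; they compare 1 gene across groups, and a comparison between genes uses CPM per kilobase of exon. A gene was called higher or lower at an adjusted p below 0.05 in edgeR's quasi-likelihood test, with Benjamini-Hochberg adjustment over all 15787 genes, and a standard error (SE) refers to a log2 fold change. The basal or general epithelial markers KRT5, KRT14, KRT17, TP63, CDH1 and LAMB3 were present in every group, with 7740 to 13800 CPM summed. The 5 markers of other cells summed to 13.8 to 32.6 CPM. COL1A1 made up 11.7 to 27.4 CPM of the latter, PECAM1 0.236 to 4.86 and ESR1 0.158 to 1.87 in group means. PTPRC and PGR had 10 and 1 counts in the whole series. In bulk RNA, fewer cells of a kind and less RNA per cell cannot be told apart.

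The stem-loop letters were searched in the GENCODE 29 transcripts of the GRCh38 genome, within 150 bases after the coding end, on the transcript strand, as GGNNC followed by TTTTNAG and NNCC. They are shown because they mark the end of the tail-less message: bases counted beyond them belong to longer transcripts. Capitals mark the whole stem-loop, and 5 bases of flank are given on each side.

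HIST3H2A: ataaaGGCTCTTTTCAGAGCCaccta
HIST1H2AC: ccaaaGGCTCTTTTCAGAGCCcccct
HIST2H2BE: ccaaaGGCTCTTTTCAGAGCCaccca
HIST1H2BD: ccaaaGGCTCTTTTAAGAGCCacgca
HIST1H2BH: ccaaaGGCTCTTTTCAGAGCCactta
HIST1H4H: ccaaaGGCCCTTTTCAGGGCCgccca
H2AFX: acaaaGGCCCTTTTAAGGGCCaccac

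The loops lie at chr1:228457369-228457384 (HIST3H2A, minus strand), chr6:26124669-26124684 (HIST1H2AC, plus), chr1:149886188-149886203 (HIST2H2BE, minus), chr6:26158587-26158602 (HIST1H2BD, plus), chr6:26252055-26252070 (HIST1H2BH, plus), chr6:26285131-26285146 (HIST1H4H, minus) and chr11:119094898-119094913 (H2AFX, minus). Each lies in the exons that the authors counted. The H2A and H2B stem-loops shown begin with GGCTC, while those of HIST1H4H and H2AFX begin with GGCCC.

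Of the 24 tested clustered genes, 18 held the loop letters, and 16 of those had more than 100 counted exon bases beyond the loop. Among the 52 clustered genes that were not tested, 13 held the letters and 6 had such a stretch. The median exon length was 1390.5 bases in the tested clustered genes and 411 in the others. Length enters the count itself, so these shares describe the annotation and the reads together. HIST3H2A had 390 counted bases past its loop, HIST1H2AC 1128, HIST2H2BE 1729 and HIST1H2BD 414. HIST1H1C and HIST1H2BK, by contrast, had 642 and 381 counted bases in all, and no loop letters in the window searched. Where a gene model ends at or near the coding end, the search had few or no bases to read. Missing letters, in tested or untested genes, therefore do not show that a message lacks the loop. H2AFX was the single tested variant gene of 10 with the loop letters, and 1044 of its counted bases lay past them.

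In these poly(A)-selected libraries, which miss most tail-less messages, the summed clustered histone RNA was highest in the starved cells. Of the 24 tested clustered genes, 13 had their highest group mean at 0 h, 5 at 3 h and 6 at 24 h in DMSO. The highest group was not counted over all genes, so these numbers have no background. The 76 clustered genes together gave 309 ± 22.9 CPM (SD, n = 3) at 0 h, 226 ± 19.7 after 3 h, 125 ± 8.71 at 6 h and 81.7 ± 6.20 after 9 h. The sum then stayed between 66.6 and 68.9 CPM from 12 to 24 h in DMSO, and it was 87.0, 70.1, 63.4 and 55.4 CPM with palbociclib at 9, 12, 15 and 24 h. At 0 h, 4 genes held 75.9% of it: HIST3H2A, HIST1H2AC, HIST1H1C and HIST1H2BD. The variant genes summed to 1343 ± 79.8 CPM at 0 h, 1111 ± 48.6 after 9 h and 1937 ± 24.9 (SD, n = 2) at 24 h in DMSO. Sums of the 2 sets are not scaled for exon length, whose median was 2745 bases in tested variant and 1390.5 in tested clustered genes. The clustered share of all histone counts was 18.7% at 0 h and 3.44% after 24 h in DMSO.

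By class, the H2A genes fell most in CPM: the 17 clustered H2A genes summed to 170 CPM at 0 h, 33.9 after 6 h and 10.8 at 15 h. The 23 clustered H2B genes went from 75.9 to 41.0 and 23.7 CPM over the same times, and the 6 H1 genes from 46.5 to 42.7 and 27.0. H4 and H3 were low throughout, at 9.10 and 7.2 CPM at 0 h, and 3.27 and 1.85 CPM after 15 h in DMSO. Tested genes per class numbered 3 of 6 for H1, 4 of 17 for H2A, 11 of 23 for H2B, 2 of 15 for H3 and 4 of 15 for H4. The class totals count names and include pseudogenes such as HIST2H3DP1.

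HIST3H2A, a clustered H2A gene at chr1:228456979-228457873, had the steepest fall among the abundant members. Its 3 libraries gave 103, 100 and 87.2 CPM at 0 h, 48.9, 38.3 and 39.0 after 3 h, and 13.9, 12.8 and 11.1 at 6 h. At 15 h in DMSO they gave 1.93, 2.81 and 3.13 CPM. Every starved library lay above every released one. The log2 change from 0 h was -1.21 (SE 0.10, adjusted p = 9.05e-12) at 3 h and -5.19 (SE 0.15, adjusted p = 3.28e-24) after 15 h. Per kilobase it was the most abundant clustered gene at 0 h, at 108 CPM per kb, ahead of HIST1H1C at 68.7 and HIST1H2AC at 39.9.

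HIST1H2AC, a second H2A gene (chr6:26124145-26139116), gave 75.9, 63.0 and 60.7 CPM at 0 h and 5.79, 5.02 and 6.26 after 15 h in DMSO. The change at 15 h was -3.56 (SE 0.11, adjusted p = 2.48e-23), and no released library reached a starved one. HIST1H2BD, an H2B gene on chromosome 6, went from 28.0, 24.8 and 28.4 CPM to 4.75, 3.03 and 3.87, a log2 change of -2.82 (SE 0.14, adjusted p = 3.02e-18).

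HIST2H2BE, an H2B gene at chr1:149884459-149886652, took another course at the start. It gave 18.1, 15.0 and 15.9 CPM at 0 h and 26.6, 18.0 and 24.0 after 3 h, with 1 value of the later group inside the range of the first. At 15 h it was at 2.60, 2.26 and 2.91 CPM, below every starved library. HIST1H1C, the most abundant clustered linker histone here, rose from 44.1 ± 5.19 to 54.4 ± 4.72 CPM at 3 h and was at 24.9 CPM by 15 h and 15.7 CPM by 24 h in DMSO. The 3 h rises of HIST2H2BE (log2 0.47, adjusted p = 0.0136), HIST1H1C (0.30, adjusted p = 0.00365) and HIST1H2BC (0.54, adjusted p = 0.0136) were all lost when libraries were scaled by their totals in place of TMM (adjusted p = 0.117, 0.209 and 0.0838), and HIST2H2BE and HIST1H2BC also without DMSO 3 h replicate 1 (adjusted p = 0.0775 and 0.0888). HIST2H2BE was lost without starved replicate 2 as well (adjusted p = 0.0559). That scaling moved the median of all genes at 3 h from -0.10 to -0.27.

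**Figure D1:**
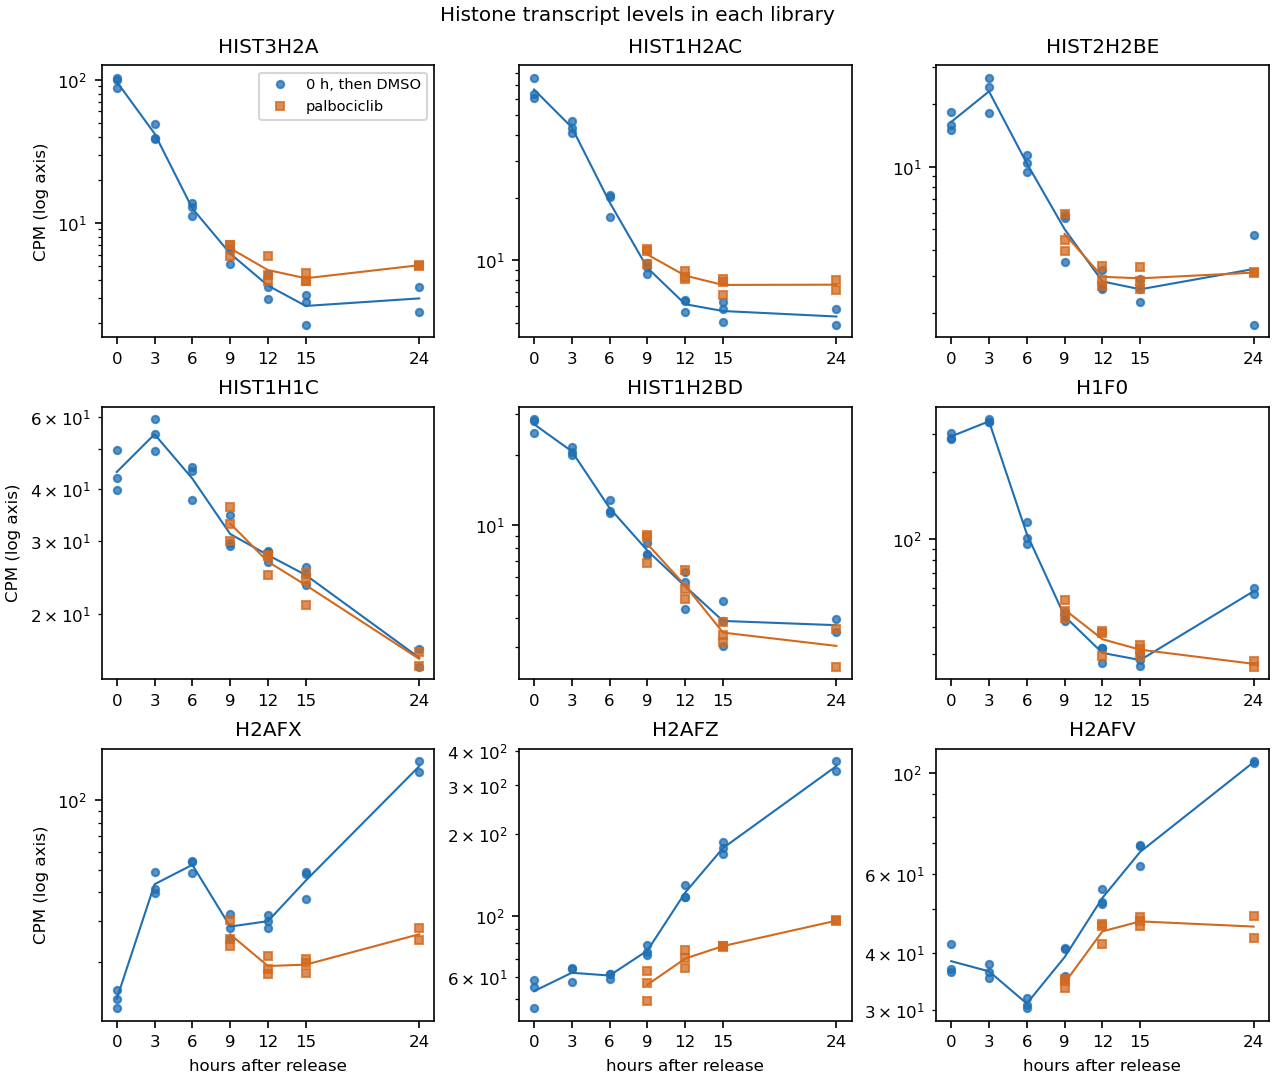
CPM (log axis) of 9 histone genes against hours after release, 1 point per library, with lines through group means. Blue marks 0 h and DMSO, orange marks palbociclib; the 5 clustered genes and H1F0 fell under both treatments, while H2AFX, H2AFZ and H2AFV rose by 24 h in DMSO and stayed lower with palbociclib.

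Across the tested clustered genes, 12 of 24 were called lower and 3 higher at 3 h, where 34.4% and 27.8% of all genes were called. At 6 h 20 were lower and 0 higher, against 39.5% and 34.1% of all genes. At 9 h 23 were lower, at 12 h 22 and after 15 h 19, with backgrounds of 39.8%, 39.6% and 39.3%, and 0 were higher at these times (backgrounds of 35.3%, 36.1% and 37.4%). Neither an unadjusted p below 0.05 in edgeR nor DESeq2 gave a higher clustered gene at 6, 9, 12 or 15 h: both counts were 0. The median log2 change was -1.39 at 6 h, -2.23 after 9 h and -1.51 at 15 h, where the median over all tested genes was -0.08, -0.09 and -0.06. These counts cover only genes with enough reads in at least 1 group, and all times share the same 3 starved libraries. In DMSO, 13 clustered genes were called lower at every time from 6 h on. How many of all genes were lower at every one of these times was not counted, so the 13 has no background.

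At 24 h in DMSO 16 clustered genes were lower than at 0 h and 2 were higher, against 38.9% and 36.7% of all genes. The higher count was 8 without DMSO replicate 3 and 1 without DMSO replicate 1. The 2 higher ones were H2B genes. HIST2H2BF gave 4.58, 3.92 and 5.02 CPM at 0 h and 8.2 and 8.15 after 24 h, with no overlap (log2 0.86, SE 0.14, adjusted p = 3.55e-06). HIST1H2BH gave 0.655, 0.693 and 1.13 CPM at 0 h and 2.85 and 1.91 after 24 h, from 41 and 77 counts in all (log2 1.5, SE 0.45, adjusted p = 0.00339), and its call was lost without DMSO 24 h replicate 1 (1.20, adjusted p = 0.0635). Some 5.54% of HIST2H2BF's exon bases lie opposite FCGR1A, and counting without strand cannot assign those reads.

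**Figure D2:**
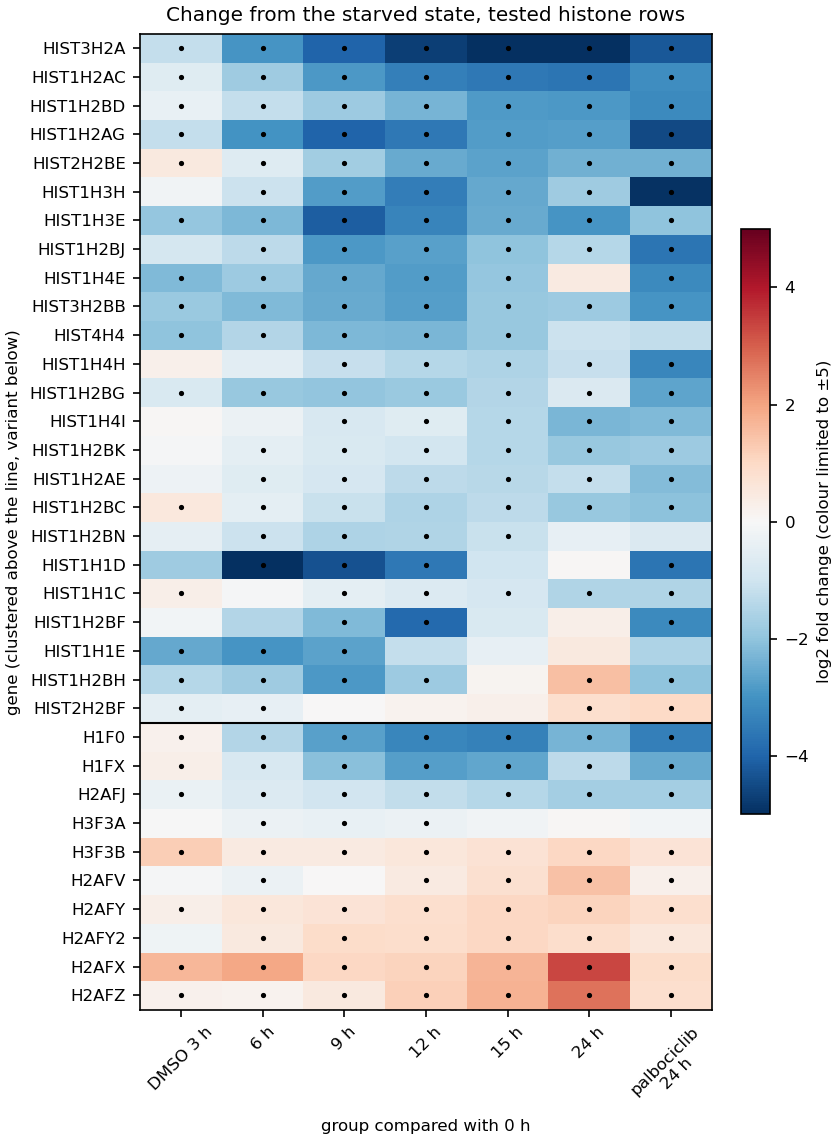
Log2 fold change from 0 h (colour, limited to ±5) for 24 clustered genes above the line and 10 variant genes below it, at 6 DMSO times and with palbociclib at 24 h. A dot marks an adjusted p below 0.05; at 9 h in DMSO 23 of the 24 clustered genes were lower, and HIST1H1D had 0 counts at 6 h, so its colour there depends on the fit.

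From 9 to 15 h in DMSO, 4 of 24 clustered genes rose and 6 fell, against 18% and 14.8% of all genes, so the share that rose was near the background. The 4 were HIST1H2BH (log2 3.01, adjusted p = 0.000744), HIST1H3E (1.60, adjusted p = 0.0027), HIST1H1E (2.29, adjusted p = 0.0383) and HIST1H1D (3.34, adjusted p = 0.0495). Their group means at 15 h were only 0.914, 0.852, 1.33 and 0.290 CPM, in that order. The HIST1H1E call was lost without replicate 1 or 2 at 9 h or replicate 1 or 3 after 15 h (adjusted p = 0.052 to 0.181), and the HIST1H1D call without replicate 1 or 2 at 9 h or replicate 2 or 3 after 15 h (adjusted p = 0.0855 to 0.184). From 15 to 24 h, HIST1H2BH, HIST1H4E and HIST2H2BF rose and HIST1H1C and HIST1H2BK fell, shares of the 24 that were below the 16.5% and 13% of all genes. HIST1H4E, an H4 gene, gave 0.223, 0 and 0.447 CPM at 15 h and 1.46 and 0.741 after 24 h, with the later libraries above all the earlier ones. The count of 3 rising genes was 9 without DMSO 24 h replicate 3 and 1 without DMSO 24 h replicate 1 or DMSO 15 h replicate 2. The HIST1H4E rise (log2 2.36, adjusted p = 0.014) was lost without DMSO 24 h replicate 1 (1.82, adjusted p = 0.171) or DMSO 15 h replicate 2, and the HIST1H2BH rise (1.36, adjusted p = 0.0204) without DMSO 24 h replicate 1 (1.05, adjusted p = 0.209) or DMSO 15 h replicate 2 or 3. The HIST1H2BK call was lost without 4 of its 5 libraries (adjusted p = 0.0567 to 0.242).

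The variant genes did not move as 1 group. H2AFX encodes H2A.X, which is phosphorylated around DNA breaks. It gave 15.1, 13.7 and 12.5 CPM at 0 h, 41.1, 49.1 and 39.7 after 3 h, 32.1, 28.0 and 25.1 at 9 h, and 148 and 133 after 24 h in DMSO. Every released library stood above every starved one, with the 6 h libraries at 48.7 to 54.7 CPM and the 9 h libraries below them. The log2 change from 0 h was 1.66 (SE 0.11, adjusted p = 5.27e-14) at 3 h, 1.05 (SE 0.12, adjusted p = 1.91e-09) after 9 h and 3.35 (SE 0.12, adjusted p = 6.22e-22) at 24 h.

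H2AFZ and H2AFV encode the 2 forms of H2A.Z, a variant placed at promoters and enhancers. H2AFZ gave 55.3, 58.5 and 46.1 CPM at 0 h, 74.1, 78.3 and 72.4 after 9 h, 177, 187 and 168 at 15 h, and 368 and 338 after 24 h. Its libraries at 9, 15 and 24 h did not overlap, and the change from 0 h reached 2.73 (SE 0.08, adjusted p = 3.06e-23). H2AFV was at 38.4 ± 3.14 CPM at 0 h and 31.0 ± 0.875 after 6 h before it rose to 106 ± 0.827 (SD, n = 2) at 24 h (log2 1.46, adjusted p = 1.76e-18). Some 9.68% of H2AFZ's exon bases lie opposite another gene model.

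H3F3A and H3F3B both encode H3.3, the H3 variant laid down outside replication. H3F3B gave 260, 242 and 233 CPM at 0 h and 612, 558 and 576 after 3 h, then 339, 345 and 310 at 6 h. The 3 h libraries stood above all others of the series, with a log2 change of 1.25 (SE 0.06, adjusted p = 9.34e-18). H3F3A was at 376 ± 40.4 CPM at 0 h, 369 ± 45.6 after 3 h and 394 ± 36.6 at 24 h, and was called, as lower, at 6, 9 and 12 h only. Per kilobase H3F3A stood above H3F3B at 0 h, at 120 against 39.9 CPM per kb, while after 3 h the values were 117 and 94.8.

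H1F0 and H1FX encode the replacement linker histones H1.0 and H1.X. H1F0 gave 287, 302 and 285 CPM at 0 h, 337, 338 and 348 after 3 h, 94.9, 120 and 101 at 6 h, and 26.6, 28.2 and 29.9 after 15 h. It was at 56.1 and 59.7 CPM at 24 h in DMSO, above each 15 h library. The change from 0 h was -3.37 (SE 0.09, adjusted p = 3.44e-25) at 15 h, and the later rise from 15 to 24 h was 1.04 (SE 0.10, adjusted p = 4.51e-10). H1FX followed the same order, at 137, 166, 22.2 and 55.4 CPM at 0, 3, 15 and 24 h. The small 3 h rises of H1F0 (log2 0.23), H1FX (0.28) and H2AFZ (0.23) were lost when libraries were scaled by their totals, and that of H2AFZ also without starved replicate 3 (adjusted p = 0.173). H1FX-AS1, which lies over 22.9% of H1FX's exon bases on the other strand, had 0.126 to 1.12 CPM in group means.

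H2AFY and H2AFY2, which encode macroH2A histones, were called higher at 24 h in DMSO, by 1.12 (SE 0.05) and 0.89 (SE 0.12) on the log2 scale. H2AFY went from 137 ± 5.97 to 298 ± 10.7 CPM. Some 30.9% of its exon bases lie opposite other gene models. H2AFJ, an H2A variant whose protein is known from senescent cells, fell from 40.8 CPM at 0 h to 12.7 after 24 h in DMSO and 12.8 with palbociclib. In the counts against 0 h, variant genes were called higher and lower in 6 and 1 of 10 at 3 h (27.8% and 34.4% of all genes), 5 and 5 after 6 h (34.1% and 39.5%), and 6 and 3 at 24 h (36.7% and 38.9%).

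Palbociclib lowered the genes of H2A.Z and H2A.X. H2AFZ was lower at every time: 63.0, 49.0 and 56.9 CPM at 9 h, 75.3, 64.7 and 70.4 after 12 h, 78.0, 78.2 and 77.4 at 15 h, and 96.0 and 96.8 after 24 h. No palbociclib library overlapped the DMSO libraries of its time. The log2 differences from DMSO were -0.42 (SE 0.08, adjusted p = 0.00148), -0.80 (SE 0.08, adjusted p = 1.24e-09), -1.19 (SE 0.08, adjusted p = 4.23e-14) and -1.87 (SE 0.09, adjusted p = 6.12e-17).

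H2AFX with palbociclib gave 30.3, 25.1 and 23.4 CPM at 9 h, 20.6, 17.8 and 19.8 after 15 h, and 27.9 and 24.7 at 24 h. The groups overlapped at 9 h and were apart later, with log2 differences of -0.12 (SE 0.11, adjusted p = 0.753), -0.66 (SE 0.11, adjusted p = 9.65e-05), -1.22 (SE 0.11, adjusted p = 1.94e-10) and -2.42 (SE 0.13, adjusted p = 2.47e-16) at 9, 12, 15 and 24 h. H2AFX with palbociclib at 24 h was still above 0 h, by 0.93 (SE 0.13, adjusted p = 3.32e-07). H2AFV was lower at 12, 15 and 24 h, by -0.25, -0.51 and -1.21, and the 12 h call was lost without DMSO replicate 1 (adjusted p = 0.117) or palbociclib replicate 3 (adjusted p = 0.128).

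At 24 h H1F0 gave 26.3 and 28.0 CPM with palbociclib against 56.1 and 59.7 in DMSO (log2 -1.09, SE 0.11, adjusted p = 2.37e-09). H1FX gave 24.0 and 23.9 against 55.6 and 55.1 (log2 -1.21, SE 0.12, adjusted p = 1.6e-09). Both were at 15 h within 0.21 of DMSO on the log2 scale and not called. H3F3B and H2AFY were lower by -0.35 and -0.26 at 24 h, and both calls were lost without palbociclib replicate 1 (adjusted p = 0.0752 and 0.082). H2AFY was also lost without DMSO replicate 3 (adjusted p = 0.055). H3F3A, H2AFY2 and H2AFJ were not called at any drug time.

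In counts, palbociclib lowered 1 variant gene of 10 at 9 h, 3 after 12 h, 3 at 15 h and 7 after 24 h, where 1.07%, 4.81%, 8.79% and 12.3% of all genes were lower. No variant gene was called higher at any of these times; at an unadjusted p below 0.05 the count was 1 at 12 h and 0 at the others, and DESeq2 called 0. The difference between times was itself tested. The palbociclib effect at 15 h was below that after 9 h in 3 variant genes, where 3.91% of all genes were lower: H2AFX by -1.10 (adjusted p = 5.72e-06), H2AFZ by -0.77 (adjusted p = 6.76e-06) and H2AFV by -0.31 (adjusted p = 0.0474). H2AFV lost this call in 15 of 19 alternatives, 10 of which left out 1 of the 12 libraries. From 15 to 24 h the effect was lower at the later time in 6 variant genes, where 1.92% of all genes were lower and 1.06% higher: H1F0 by -1.25, H2AFX by -1.20, H1FX by -1.0, H2AFV by -0.70, H2AFZ by -0.68 and H3F3B by -0.35. The H3F3B value lost its call without any 1 of 7 of the 10 libraries (adjusted p = 0.0565 to 0.37).

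**Figure D3:**
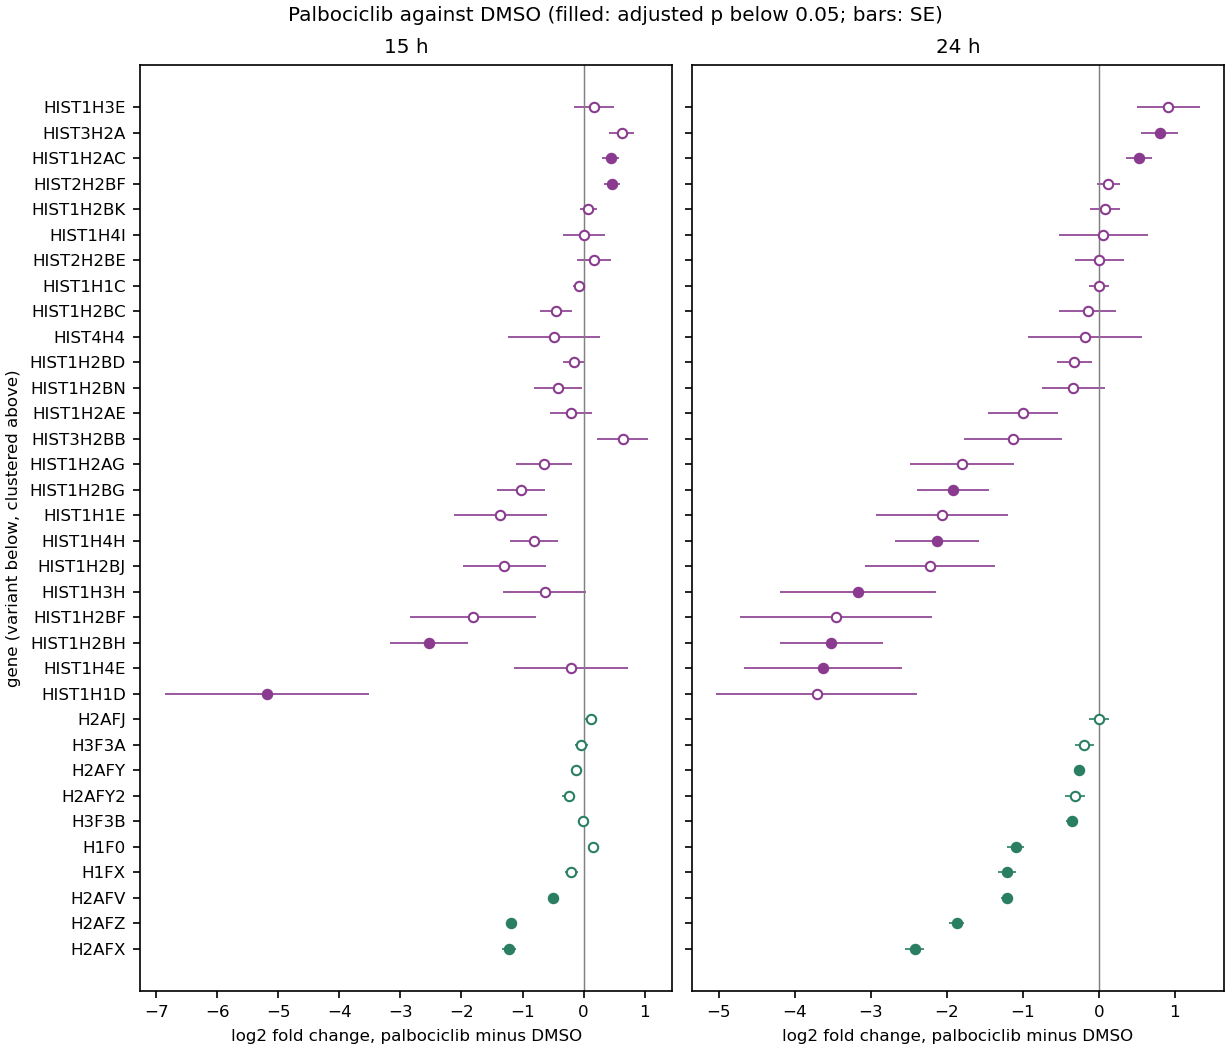
Log2 fold change with SE, palbociclib minus DMSO, at 15 h (left) and 24 h (right) for the 34 tested clustered (purple) and variant (green) genes; filled points have an adjusted p below 0.05. Variant genes lie at 0.00 (H2AFJ) or below at 24 h with narrow bars, while clustered genes range from 0.92 for HIST1H3E to -3.71 for HIST1H1D with wide bars; HIST1H1D had 0 counts with palbociclib at 15 h, so its point there depends on the fit.

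At 9 h 0 of 24 clustered genes were called between drug and vehicle in edgeR, at an unadjusted p below 0.05 or in DESeq2, where 0.108% of all genes were higher and 1.07% lower, so a count of 0 is near the background. The fall after release was also present with the drug: against 0 h, 20 clustered genes were lower with palbociclib at 24 h and 1 was higher, HIST2H2BF, with backgrounds of 36.9% and 34.3%. The 20 included all 16 that were lower in DMSO at 24 h, and 11 of those 16 were not called between drug and vehicle. Of all 15787 genes, 910 were called higher and 1937 lower between drug and vehicle at 24 h, so most genes were not called either. The contrasts with 0 h share their starved libraries. HIST1H1C was at 15.0 and 16.2 CPM with palbociclib and 16.5 and 14.9 in DMSO at 24 h, a log2 difference of 0.00 (SE 0.14).

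HIST1H2AC was called higher with the drug at 12, 15 and 24 h and HIST3H2A at 24 h, and each call was lost without single libraries. HIST1H2AC gave 8.85, 8.33 and 8.09 CPM with palbociclib at 12 h against 6.43, 6.36 and 5.61 in DMSO, 6.82, 7.83 and 8.14 against 5.79, 5.02 and 6.26 after 15 h, and 7.2 and 8.04 against 5.83 and 4.87 at 24 h. The groups did not overlap at these times. The differences were 0.45 (SE 0.13, adjusted p = 0.0306), 0.44 (SE 0.13, adjusted p = 0.0272) and 0.53 (SE 0.17, adjusted p = 0.0239). The 12 h call was lost without any 1 of its 6 libraries (adjusted p = 0.0544 to 0.142), the 15 h call without 4 of 6, and the 24 h call without replicate 3 of DMSO (0.38, adjusted p = 0.308) or of palbociclib (0.44, adjusted p = 0.207).

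HIST3H2A gave 5.02 and 5.08 CPM with palbociclib at 24 h and 3.54 and 2.38 in DMSO (log2 0.80, SE 0.24, adjusted p = 0.0191). Without DMSO replicate 3 the difference was 0.50 (adjusted p = 0.336), and the call was also lost without either palbociclib library. HIST2H2BF was higher at 15 h, at 7.50, 7.12 and 7.89 CPM against 5.57, 4.69 and 6.18 (log2 0.46, SE 0.13, adjusted p = 0.0176), and was not called after 24 h. That call was lost without DMSO replicate 2 (adjusted p = 0.145) or palbociclib replicate 3 (adjusted p = 0.0796). In all, 1, 2 and 2 clustered genes were higher at 12, 15 and 24 h, where 0.823%, 2.15% and 5.76% of all genes were higher. The 24 h count is therefore near the background.

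Several scarce clustered genes were called lower with the drug: 2 of 24 at 15 h and 5 after 24 h. Over all genes 8.79% and 12.3% were lower, so the 15 h count is near the background. The 24 h count was 1 without DMSO replicate 1 or palbociclib replicate 1, and 12 without DMSO replicate 3. HIST1H2BH gave 0.965, 0.882 and 0.894 CPM in DMSO at 15 h and 0.0853, 0.329 and 0 with palbociclib, from 41 and 7 counts. At 24 h it gave 2.85 and 1.91 against 0.0948 and 0.275, from 77 and 5 counts. The groups were apart at both times, with log2 differences of -2.53 (SE 0.64, adjusted p = 0.00605) and -3.52 (SE 0.68, adjusted p = 0.000242). The 15 h call was lost without palbociclib replicate 3 (-1.95, adjusted p = 0.0519). Its effect at 15 h was below that after 9 h by -4.05 (SE 1.04, adjusted p = 0.0159), a call lost without DMSO 9 h replicate 1 or palbociclib 9 h replicate 3 (-3.03, adjusted p = 0.265).

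The other genes lower at 24 h were HIST1H2BG (64 counts in DMSO, 13 with palbociclib), HIST1H4H (46 and 8), HIST1H4E (35 and 2) and HIST1H3H (14 and 1). Their log2 differences were -1.92 (adjusted p = 0.00349), -2.13 (adjusted p = 0.00536), -3.62 (adjusted p = 0.0125) and -3.16 (adjusted p = 0.0283). HIST1H4H leaned on 1 library: its DMSO values were 2.29 and 0.688 CPM, and without DMSO replicate 1 the difference was -1.10 (adjusted p = 0.279). The calls of HIST1H2BG and HIST1H4E were also lost without that library (-1.36, adjusted p = 0.106, and -3.10, adjusted p = 0.103). HIST1H3H was lost without any 1 of the 4, and HIST1H2BG and HIST1H4E also without palbociclib replicate 1 (adjusted p = 0.0568 and 0.0705), HIST1H4E without palbociclib replicate 3 as well (adjusted p = 0.114), and HIST1H4H without either palbociclib library (adjusted p = 0.0508 and 0.0501). HIST1H1D, a linker histone, had 1, 5 and 7 counts in DMSO at 15 h and 0 in all 3 palbociclib libraries, which gives it an at least 4.35-fold lower level, taking 3 counts over the group for the 0. Its call there (adjusted p = 0.0431) was lost without any 1 of 5 libraries.

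The 52 clustered genes under the filter gave few reads, but their sum changed with the groups. Together they had 197 counts at 0 h, 67, 57, 43 and 61 at 3, 6, 9 and 12 h in DMSO, then 174 after 15 h and 244 at 24 h. With palbociclib they had 45, 30, 48 and 22 at 9, 12, 15 and 24 h. In CPM, the DMSO libraries were at 5.42, 2.09 and 4.69 at 15 h and at 11.4 and 4.23 after 24 h. The palbociclib libraries were at 1.28, 1.04 and 0.883 and at 1.14 and 0.687, below each DMSO library of the same time. No p is given for this sum, because its members were chosen with results known.

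Several of these genes had reads late in DMSO only or nearly so. HIST1H1B, a linker histone gene, had 1 count at 0 h, 0 in DMSO from 3 to 12 h, 5, 1 and 6 after 15 h, 14 and 8 at 24 h, and 0 in every palbociclib library. Its level in DMSO was at least 5.42-fold higher at 24 h and at least 4.02-fold higher after 15 h, again with 3 counts over the group for the 0. HIST1H3B had 6 and 13 counts at 15 and 24 h in DMSO and 0 with palbociclib (at least 2.01-fold and 3.2-fold). HIST1H3F had 2 and 9 in DMSO and 0 with palbociclib, at least 2.22-fold at 24 h. At 15 h its ratio to the limit was 0.67, which sets no difference. HIST1H3J had 5 and 5 in DMSO and 0 with palbociclib (at least 1.67-fold and 1.23-fold). Its reads were not late only, as the starved libraries had 1, 2 and 1 counts. HIST1H1A had 9 and 20 counts in DMSO and 1 and 0 with palbociclib.

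With no filter on low counts, edgeR called 4 of the 38 untested genes with a count lower with palbociclib at 15 h (HIST1H2BL, HIST1H2AL, HIST1H1B and HIST1H2BO) and 2 after 24 h (HIST1H1A and HIST1H1B). In that fit 3.46% and 4.69% of all 34335 genes were lower, so the 24 h count is near the background. Against 0 h, 10 of the 38 were higher at 24 h in DMSO and 2 were lower, HIST2H4A and HIST3H3, where 16.7% and 18.9% of all genes were called. HIST2H4A had 34 counts at 0 h and 2 after 24 h in DMSO. It has a near-identical copy, HIST2H4B, and reads that match both were not counted, as for the pairs HIST2H2AA3 with HIST2H2AA4 and HIST2H3A with HIST2H3C. The 6 untested variant genes added little, with H3F3C at 0 to 9 counts in any group.

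RNAs that lack a tail moved with some of these values. The summed level of 7 such RNAs (RN7SK, RN7SL1, RN7SL2, RMRP, RPPH1, SCARNA2 and VTRNA1-1) ran from 12.2 to 112 CPM between libraries. VTRNA1-1 had no count in any library and added nothing to the sum. The sum was lowest in replicate 2 of each group from 0 to 15 h in DMSO and in replicate 3 of DMSO at 24 h and of every palbociclib group. In DMSO at 15 h it was 82.9, 16.8 and 73.2 CPM, and the 52 scarce genes were lowest in the same library. At 24 h in DMSO it was 48.3 and 14.3 CPM, again with the lower histone sum in the lower library. With palbociclib it was 98.6, 35.9 and 16.6 CPM at 15 h and 67.6 and 15.5 at 24 h. Its part in the summed level of the scarce genes was not tested. With the carry-over as a covariate, an alternative chosen after seeing the data, no histone call between palbociclib and DMSO was lost, and 8 clustered genes were lower at 24 h in place of 5. Of all 15787 genes, 2230 were then lower in place of 1937.

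**Figure D4:**
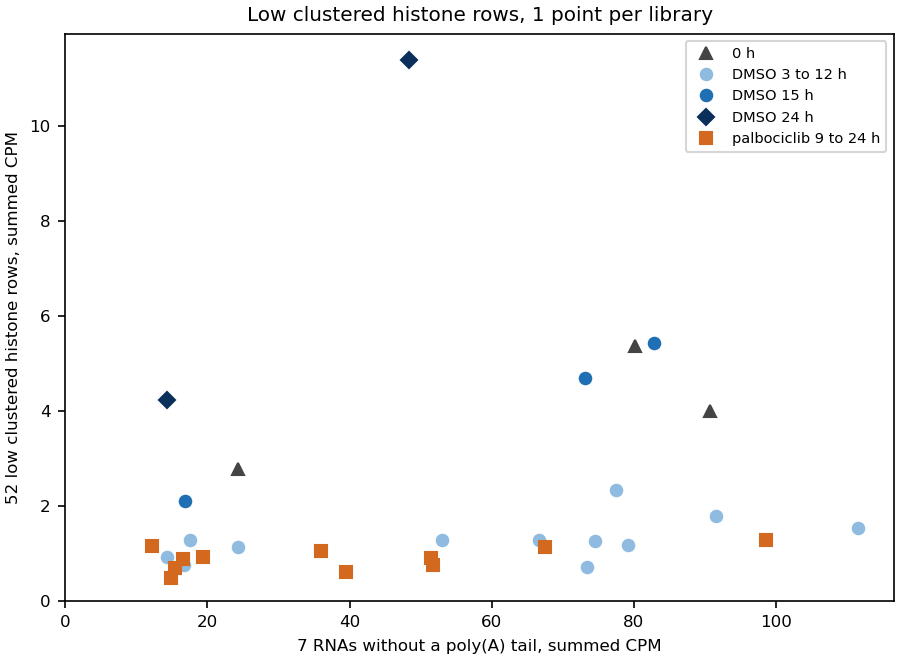
Summed CPM of the 52 clustered genes under the filter (vertical axis) against summed CPM of 7 RNAs without a poly(A) tail (horizontal axis), 1 point per library. Of the 7, VTRNA1-1 had no counts. The DMSO 24 h libraries stand at 11.4 and 4.23 CPM and the palbociclib libraries at or below 1.28 CPM.

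Genes that act on histone messages were mostly called higher after release, with exceptions. Of 20 genes for histone transcription, 3' end processing and decay, all tested, 11, 13, 15, 16, 16 and 17 were higher than at 0 h at 3, 6, 9, 12, 15 and 24 h in DMSO, and 2, 2, 3, 1, 1 and 1 were lower. Over all genes 27.8% to 37.4% were higher and 34.4% to 39.8% lower at these times. SLBP, which binds the stem-loop, went from 44.6 ± 5.66 CPM at 0 h to 97.2 ± 6.51 after 15 h in DMSO, with 49.0 ± 2.91 for palbociclib (log2 difference -0.99, adjusted p = 5.71e-11). ERI1, an exonuclease that trims histone messages at the loop, went from 10.5 to 46.6 CPM at 24 h in DMSO and 28.8 with palbociclib. NPAT and CASP8AP2, which act at histone gene loci, were lower with palbociclib from 9 h on, by -0.40 and -0.43 then and by -0.76 and -0.55 at 24 h. HINFP, which binds H4 promoters, was lower than at 0 h at each DMSO time, by -1.20 after 3 h and -1.30 at 24 h. Palbociclib lowered 2, 6, 8 and 11 of the 20 at 9, 12, 15 and 24 h, against 1.07%, 4.81%, 8.79% and 12.3% of all genes.

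The S-phase genes PCNA, RRM2 and CCNE2 moved with the drug at the same times. RRM2, which makes deoxynucleotides, was at 263 ± 24.5 CPM at 15 h and 439 ± 2.56 after 24 h in DMSO, and at 2.76 ± 0.745 and 7.96 ± 0.669 with palbociclib. Its part, and that of cell cycle phase, in the histone differences was not tested.

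Promoter letters were counted in the 250 bases before each RefSeq start (GRCh38.p14), where 74 members had an entry. CCAAT, on either strand, was in 50 of 60 clustered promoters (83.3%) and 11 of 14 variant ones, against 32% of 35116 promoters. TATAAA, on either strand, was in 40 of 60 clustered promoters (66.7%) against 10.7% of all. In the 39 clustered genes with an entry that were not tested the shares were 82.1% and 71.8%, and in the 21 tested ones 85.7% and 57.1%. The following 150 bases end at the RefSeq start and are shown for 2 genes that fell after release and 2 that rose late in DMSO. Capitals mark CCAAT, its reverse complement ATTGG, and TATAAA.

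HIST3H2A: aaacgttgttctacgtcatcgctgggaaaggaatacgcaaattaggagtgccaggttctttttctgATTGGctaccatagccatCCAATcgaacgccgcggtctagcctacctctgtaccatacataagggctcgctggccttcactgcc
HIST2H2BE: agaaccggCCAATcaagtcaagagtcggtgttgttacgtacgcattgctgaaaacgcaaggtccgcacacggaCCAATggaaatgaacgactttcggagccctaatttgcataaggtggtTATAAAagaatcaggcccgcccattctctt
HIST1H2BH: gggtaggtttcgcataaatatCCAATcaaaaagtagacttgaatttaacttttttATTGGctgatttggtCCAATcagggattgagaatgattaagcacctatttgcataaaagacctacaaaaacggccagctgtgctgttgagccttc
H2AFX: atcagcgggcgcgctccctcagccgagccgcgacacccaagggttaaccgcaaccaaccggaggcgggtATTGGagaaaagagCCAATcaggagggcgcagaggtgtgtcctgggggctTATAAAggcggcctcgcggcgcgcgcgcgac

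The windows are chr1:228457874-228458023 (HIST3H2A, minus strand), chr1:149886683-149886832 (HIST2H2BE, minus), chr6:26251464-26251613 (HIST1H2BH, plus) and chr11:119095466-119095615 (H2AFX, minus). Each holds 2 or 3 CCAAT letters, and HIST2H2BE and H2AFX also hold TATAAA.

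Many H2A and H2B genes start back to back, and 4 such pairs had both genes tested. HIST3H2A and HIST3H2BB start 234 bases apart: HIST3H2A was at 96.9 CPM at 0 h and HIST3H2BB at 1.91, and both were lower after 15 h, by -5.19 and -1.89. HIST1H2AC and HIST1H2BC, 219 bases apart, were at 66.5 and 4.78 CPM at 0 h, and after 3 h the first fell by 0.60 while the second rose by 0.54, a rise lost with scaling by totals. HIST1H2AE and HIST1H2BG, 283 bases apart, were lower by -1.40 and -1.47 at 15 h, and HIST1H2AG and HIST1H2BJ, 292 bases apart, by -2.79 and -2.00.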

How the data were processed

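Libraries were made with a stranded kit and mRNA capture beads and read as 75 nt single ends, per the labels' protocols. FastQC 0.11.3, TopHat2 2.1.1, Bowtie2 2.2.9, Subread 1.5.1 and GRCh38.p7 were used, per the submitters' processing notes. Each deposited file lists unscaled counts by gene name, which the authors made with featureCounts 1.5.1 on GENCODE 25 exons, per the file headers, with no option set for strand, multi-mapping or overlapping genes. Genes opposite another gene, and near-identical copies, are therefore uncertain.

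In R 4.3.3, edgeR 4.0.16 fitted all 31 libraries by group (TMM factors 0.9273 to 1.082, filterByExpr by group, 20 residual degrees of freedom) with 15 contrasts and Benjamini-Hochberg adjustment over 15787 genes. The fit was also run on simulated data, but no outcome is given here, so no error rate is drawn from it. The common biological coefficient of variation was 6.55%. Replicates differed beyond sampling noise in every group (chi-square per degree of freedom 5.33 to 9.85), so each was 1 sample. Alternatives were other scalings, no filter, DESeq2 1.42.0, a replicate block and leaving libraries out. Any tested member could be named, and untested ones are given by counts. Members and lists were chosen with earlier results of these data known. A limit for 0 is 3 counts over a group and covers counting error only.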

Additional observations from a re-analysis of the deposited data

Results flagged for a closer look

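The effect of palbociclib differed between 15 and 9 h in 4 histone genes, by edgeR's test of the difference itself: H2AFX by -1.10, H2AFZ by -0.77, H2AFV by -0.31 and HIST1H2BH by -4.05 on the log2 scale. Over all 15787 genes, 21 effects were called higher and 618 lower at 15 h. H2AFX and H2AFZ kept this call under every alternative run, while H2AFV lost it in most and HIST1H2BH without single libraries. Between 24 and 15 h the effect differed in 6: H1F0 by -1.25, H2AFX by -1.20, H1FX by -1.0, H2AFV by -0.70, H2AFZ by -0.68 and H3F3B by -0.35. Over all genes, 167 effects were called higher and 303 lower at 24 h. The H3F3B call was lost without single libraries. All 10 differences are negative, so each effect was lower at the later time, as were most of those called over all genes. The earlier effect was not a deficit in every gene: it was 1.52 for HIST1H2BH at 9 h, and 0.16 for H1F0 and -0.01 for H3F3B at 15 h, none of them called.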

How the results depend on the processing

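Of 6920 values of single genes under the alternatives, 6626 kept their direction and side of the threshold, 207 lost a call, 87 gained one and 0 reversed. Counts of scarce clustered genes moved most. The fit with no filter on low counts also held the 38 untested clustered genes with a count, so its counts have a larger base. In it, the clustered genes lower with palbociclib were 1 at 12 h, 7 after 15 h and 10 at 24 h, and 1 was higher after 24 h. Of all 34335 genes in that fit, 678, 1187 and 1612 were lower at these times, and 657 were higher at 24 h. In DMSO with no filter, 4 and 12 were higher than at 0 h at 15 and 24 h, 9 rose from 9 to 15 h, and 1 fell from 15 to 24 h, as with DESeq2 (1). Over all genes with no filter, 5819 and 5730 were higher, 2341 rose and 1669 fell in these comparisons, and 1897 of 15787 fell with DESeq2. Scaling by library totals left 0 clustered and 3 variant genes higher and 3 variant genes lower at 3 h, and gave variant sums of 1425, 1711 and 1897 CPM at 0, 3 and 24 h in DMSO. Of all 15787 genes, 3463 were higher and 7263 lower at 3 h with that scaling.

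Without replicate 3 of DMSO 24 h and of all 4 palbociclib groups (5 libraries), 0 clustered genes were higher with palbociclib at 12, 15 or 24 h, and 0 had a lower drug effect at 15 than at 9 h. Of the 16453 genes tested in that fit, 57, 164 and 285 were higher with palbociclib at these times, and 424 had a lower effect at 15 than at 9 h. In DMSO, 4 and 6 clustered genes were then higher than at 0 h at 15 and 24 h, 8 rose from 9 to 15 h, 8 rose and 1 fell from 15 to 24 h. Over all genes in that fit, 6452 and 5789 were higher than at 0 h, 2638 rose from 9 to 15 h, and 1504 rose and 1230 fell from 15 to 24 h. With the carry-over covariate, chosen after seeing the data, 8 clustered genes were lower with palbociclib at 24 h, 4 were higher than at 0 h at 24 h in DMSO, 5 rose from 15 to 24 h and 1 variant gene fell. Of all 15787 genes, 2230 were lower, 5867 were higher, 2823 rose and 2416 fell in these comparisons.

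Leaving out 1 library at a time, clustered genes higher with palbociclib numbered 0 to 0 at 12 h, 0 to 3 after 15 h and 0 to 2 at 24 h, and lower ones 1 to 2 after 15 h and 1 to 12 at 24 h. Variant genes higher at 12 h numbered 0 to 1. Clustered genes higher than at 0 h in DMSO numbered 1 to 3 after 3 h, 0 to 1 at 12 h, 0 to 1 after 15 h and 1 to 8 at 24 h. From 9 to 15 h 2 to 4 rose, and from 15 to 24 h 1 to 9 rose and 1 to 3 fell. The lower drug effect at 15 than at 9 h held in 0 to 1. Calls over all genes were not counted in these fits, so neither these ranges nor the single-library counts above have a background. Whether the shifts are particular to histone genes cannot be told from them. Leaving 1 library out of a 24 h group leaves 1 library there. The causes of these shifts were not tested.

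The replicate numbers were not taken to pair the samples, because in no comparison with 3 pairs were all correlations above 0.1: same-numbered deviations correlated at -0.151 to 0.113 between drug and vehicle at 9 h, -0.249 to 0.0536 after 15 h and 0.297 at 24 h, with 2 pairs. Among DMSO groups they were 0.0609 to 0.39 for 3 h against 0 h, 0.0146 to 0.419 for 6 h against 0 h, 0.0764 to 0.22 for 15 h against 9 h, and -0.235 to 0.0174 for 24 h against 0 h, with 2 libraries at 24 h. A fit with the replicate block gained 11 calls and lost 0, with 7 in place of 5 clustered genes lower with palbociclib at 24 h, 3 in place of 2 higher after 15 h, and 4 in place of 3 variant genes lower at 15 h. Of all 15787 genes, that fit called 2144 lower with palbociclib at 24 h, and 483 higher and 1548 lower at 15 h. DESeq2 gave no adjusted p for 9 members at 24 h between drug and vehicle, 3 of them called by edgeR. The 52 scarce genes had 22 to 244 counts in all per group, so a gene not called at this depth is not shown to be unchanged.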
